A study of Mus musculus with 42 samples.

Results

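The genes described here encode nuclear subunits of the mitochondrial respiratory chain and of ATP synthase. They were chosen by symbol: Nduf followed by a, b, c, s or v and a number, the 4 Sdh genes, and all symbols that begin with Uqcr, with Cox4 to Cox8 or with Atp5. Of 18193 genes named on the array, 81 met the rule: 35 of complex I, 4 of complex II, 8 of complex III, 17 of complex IV and 17 of complex V. For the 48 genes with several probe sets, the one with the highest mean level over all arrays stands for the gene. Ndufs6, Ndufa11 and Cox7b are not analysed here.

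Complex I (NADH dehydrogenase) and complex II (succinate dehydrogenase) pass electrons to ubiquinone, complex III (cytochrome bc1) passes them to cytochrome c, and complex IV (cytochrome c oxidase) passes them to oxygen. Complexes I, III and IV pump protons as they do so, and complex V (ATP synthase) makes ATP from the proton gradient. The early mouse embryo starts with transcripts and structurally simple mitochondria inherited from the oocyte, and its mitochondria gain cristae and respiratory activity towards the blastocyst.

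All embryos were B6D2F1 mouse embryos cultured in human tubal fluid medium with serum supplement. Injected embryos received, at the 1-cell stage, antisense morpholino oligomers against Oct4 (gene symbol Pou5f1), Sall4 or Nanog, or a control morpholino that matches no mouse sequence, and others were left uninjected. They were collected 44 h or 20 h after injection, as 14 groups of 3 arrays numbered as biological replicates. The Nanog experiment held Nanog morpholino, control morpholino and uninjected embryos at both times. Oct4 morpholino and Sall4 morpholino embryos at 44 h shared 1 control morpholino group and 1 uninjected group, and at 20 h each had an uninjected group of its own and no control morpholino group. Outside the Nanog experiment, therefore, time and separately labelled experiment cannot be told apart. The labels state neither how many embryos made up a sample nor whether a morpholino blocks translation or splicing, so the p-values reflect only how far these arrays spread, which may be technical.

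Values are deposited intensities on a linear scale. The 18 arrays of the Nanog experiment had medians of 193 to 227 over all probe sets, and the other 24 arrays had medians of 26.1 to 33.3. Levels were therefore compared only among arrays of the same scale. Outside the Nanog experiment, changes over time set arrays at 44 h against separately labelled experiments at 20 h. Differences are on the scale log2(intensity + 16), which understates the change of dim genes. They were tested with limma in 1 fit of all 42 arrays, with Benjamini-Hochberg adjustment over 15478 genes, and "rose", "fell" and "passed" refer to an adjusted p under 0.05. All 81 genes passed the filter on low values, a group mean above 71.15 in at least 1 group; 3 of them, Cox8c, Ndufa4l2 and Ndufb4, did so only through the brighter arrays of the Nanog experiment. Each gene varied between replicates with a residual SD whose median was 0.42 for the 81 genes and 0.50 for all tested genes (log2).

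Markers and targets were read first. Of the 9 preimplantation embryo markers on the array, 6 lay above the array median on every array of the Nanog experiment and 5 on every other array, while 0 of 10 blood and stroma markers, 1 of 10 cumulus or granulosa cell markers and 1 of 5 sperm and male germ cell markers did so. The summed intensity of the cumulus or granulosa list was higher at 44 h than at 20 h in uninjected embryos, as most subunits were. Over the Oct4 and Sall4 experiments it was 1323 to 3414 at 44 h, against 293 to 1164 at 20 h, and at 44 h it was 1323 to 1569 with the Oct4 morpholino, against 2265 to 2822 with the control morpholino. In the Nanog experiment it was 6996 to 8815 in uninjected embryos at 44 h, against 2812 to 6145 at 20 h, and at 44 h it was 4367 to 6266 with the Nanog morpholino, against 6506 to 7654 with the control morpholino. Its part in the results was not tested. Pou5f1 was lower at 44 h with each morpholino, by log2 differences of -0.82 (Oct4), -0.88 (Sall4) and -0.70 (Nanog), against control morpholino embryos. The Sall4 transcript did not pass the test with its own morpholino at 44 h (0.21, adjusted p = 0.702), nor did the Nanog transcript (-0.61, adjusted p = 0.654), and a morpholino need not lower its target mRNA. Fewer cells of a type and less RNA per cell cannot be told apart in samples of whole embryos. Probe sets of subunits with pseudogene copies may also read those copies, which was not tested.

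Promoters of 6 genes on which the results turn are shown first, from RefSeq windows of 250 bases before to 50 bases after the transcription start (build GRCm38.p6, all on the minus strand of the genome and written 5′ to 3′ in the direction of transcription). Capitals mark matches, on either strand, to 3 motifs of factors known to act at promoters of respiratory genes: NRF1 (the half-sites GCGCA and GCGC with 1 base of any kind between them), ETS or GABP (CTTCCGG) and YY1 (AAGATGGCG). Ndufa8 (chr2:36049289-36049588) and Atp5k (chr5:108434350-108434649) rose in all 6 comparisons over time. Cox6b1 (chr7:30626065-30626364) and Cox6b2 (chr7:4753045-4753344) are isoforms that changed in opposite directions. Ndufs4 (chr13:114388045-114388344) was lower with the Oct4 morpholino, and Sdha (chr13:74350191-74350490) with all 3 morpholinos.
Ndufa8: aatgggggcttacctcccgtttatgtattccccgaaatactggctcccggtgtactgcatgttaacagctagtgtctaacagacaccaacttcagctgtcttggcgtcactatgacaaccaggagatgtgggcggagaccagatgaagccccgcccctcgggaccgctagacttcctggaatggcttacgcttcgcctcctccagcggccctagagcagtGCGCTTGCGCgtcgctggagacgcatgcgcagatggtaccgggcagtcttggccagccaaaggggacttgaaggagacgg
Atp5k: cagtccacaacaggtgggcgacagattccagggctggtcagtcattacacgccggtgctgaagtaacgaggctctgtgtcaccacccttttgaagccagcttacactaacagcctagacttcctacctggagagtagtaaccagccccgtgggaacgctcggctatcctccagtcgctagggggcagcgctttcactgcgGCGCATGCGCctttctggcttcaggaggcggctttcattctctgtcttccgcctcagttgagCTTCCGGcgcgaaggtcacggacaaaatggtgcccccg
Cox6b1: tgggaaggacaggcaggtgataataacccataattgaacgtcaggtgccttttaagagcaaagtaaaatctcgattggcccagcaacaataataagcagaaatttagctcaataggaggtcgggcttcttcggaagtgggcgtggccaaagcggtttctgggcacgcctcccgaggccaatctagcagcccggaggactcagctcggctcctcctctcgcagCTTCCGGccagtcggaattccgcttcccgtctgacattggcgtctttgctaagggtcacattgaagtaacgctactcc
Cox6b2: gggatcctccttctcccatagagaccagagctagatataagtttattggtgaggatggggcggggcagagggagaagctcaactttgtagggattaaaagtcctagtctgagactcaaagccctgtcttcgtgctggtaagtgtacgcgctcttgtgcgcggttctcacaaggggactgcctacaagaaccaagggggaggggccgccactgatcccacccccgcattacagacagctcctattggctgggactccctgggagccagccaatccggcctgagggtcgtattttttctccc
Ndufs4: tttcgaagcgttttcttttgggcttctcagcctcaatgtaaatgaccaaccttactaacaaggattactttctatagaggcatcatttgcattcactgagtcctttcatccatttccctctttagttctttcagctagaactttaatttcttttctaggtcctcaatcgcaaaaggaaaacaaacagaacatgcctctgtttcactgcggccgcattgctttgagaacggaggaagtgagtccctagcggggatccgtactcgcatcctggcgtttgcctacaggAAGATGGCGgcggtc
Sdha: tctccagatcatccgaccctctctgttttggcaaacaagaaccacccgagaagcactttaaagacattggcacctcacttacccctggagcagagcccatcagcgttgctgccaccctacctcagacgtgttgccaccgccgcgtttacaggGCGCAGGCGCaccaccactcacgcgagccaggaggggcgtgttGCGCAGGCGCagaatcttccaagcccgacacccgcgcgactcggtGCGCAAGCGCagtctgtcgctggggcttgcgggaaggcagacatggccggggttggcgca

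The Sdha window holds 3 NRF1 matches, at -98, -55 and -10 from the start, and those of Ndufa8 and Atp5k hold 1 each, at -30 and -50. Atp5k also has an ETS match at 13 bases after the start, Cox6b1 has one at -28, and Ndufs4 has a YY1 match at 36 bases after the start. No match was found in the Cox6b2 window, and none of the printed matches overlap one another. A RefSeq window was at hand for 66 of the 81 genes. NRF1 matched in 15 of them (22.7%), against 9.65% of the 12417 tested genes with a window and 5.19% of all 27025 genes with one. ETS matched in 17 (25.8%, against 16.7% and 9.93%) and YY1 in 6 (9.09%, against 2.87% and 1.64%). A match describes letters in a window; it shows no binding, and no cause is read from it. Subunits with an NRF1 match had a median log2 difference of -0.50 with the Oct4 morpholino at 44 h and those without had -0.32, while with and without an ETS match the medians were -0.21 and -0.47. Over time, subunits with and without an NRF1 match had medians of 0.97 and 0.79 in uninjected embryos of the Nanog experiment and of 1.08 and 1.55 in those of the other experiments, so the order turned between them.

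Subunit transcripts were higher at 44 h than at 20 h, relative to other genes on the same array. On the arrays of the Nanog experiment the median of the 81 genes exceeded the median of all tested genes by 2.48 to 3.07 (log2) at 44 h and by 1.54 to 2.00 at 20 h. On the other arrays this excess was 3.19 to 3.90 at 44 h and 1.60 to 2.11 at 20 h. The ranges of the 2 times did not overlap within either scale. In the Nanog experiment the excess was 2.48 to 2.71 in Nanog morpholino embryos at 44 h, 2.80 to 2.89 in control morpholino embryos and 2.93 to 3.07 in uninjected embryos. In the other experiments at 44 h it was 3.19 to 3.36 with the Oct4 morpholino, 3.19 to 3.33 with the Sall4 morpholino, 3.45 to 3.66 with the control morpholino and 3.53 to 3.90 without injection. At 44 h the arrays of the 3 knockdowns thus lay below all arrays of their own control morpholino and uninjected groups.

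**Figure D1:**
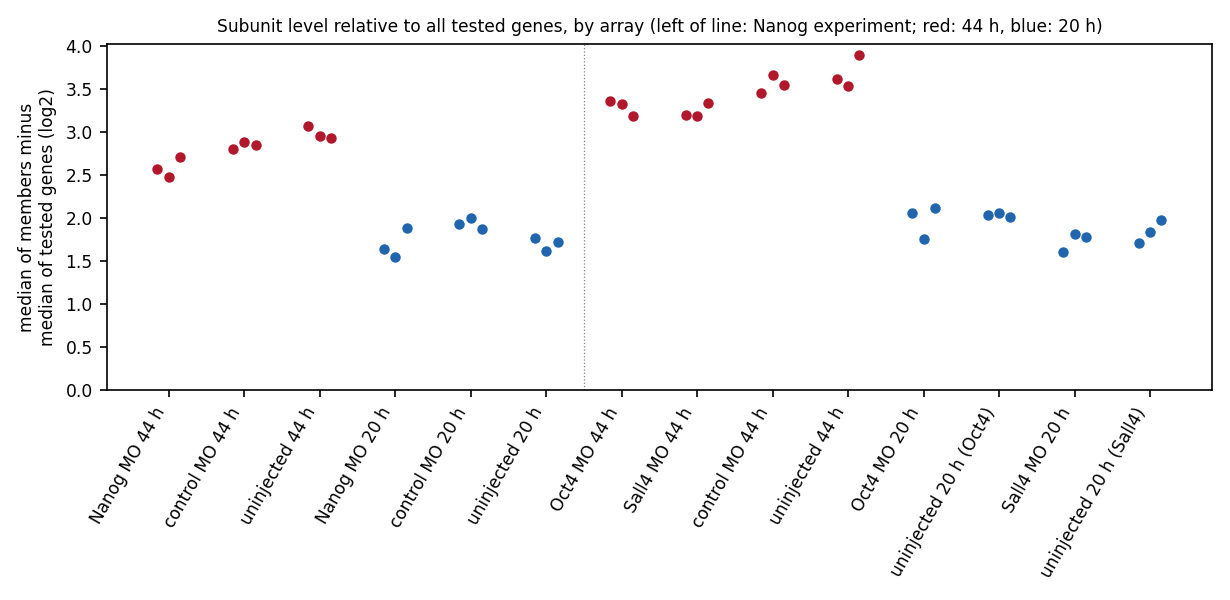
Median log2(intensity + 16) of the 81 subunits minus that of all tested genes, for each of the 42 arrays (points, 3 per group; red at 44 h, blue at 20 h; the dotted line parts the Nanog experiment from the others). In the Nanog experiment arrays at 44 h lie between 2.48 and 3.07 and arrays at 20 h between 1.54 and 2.00. In the others they lie between 3.19 and 3.90 at 44 h and between 1.60 and 2.11 at 20 h.

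In uninjected embryos of the Nanog experiment 35 of the 81 subunits rose and 1 fell, where 9.28% of all tested genes rose and 16.3% fell (25.6% in all). In control morpholino embryos 22 rose and 2 fell (all genes, 7.17%, 16.2% and 23.3% in all), and in Nanog morpholino embryos 22 rose and 3 fell (8.00%, 11.8% and 19.8% in all). Their median log2 differences were 0.68, 0.47 and 0.64, and those of all genes 0.02, -0.09 and -0.01. In uninjected embryos of the Oct4 and Sall4 experiments 61 rose and 3 fell (all genes, 20.4%, 25.0% and 45.5% in all). In Oct4 morpholino embryos 47 rose and 5 fell (17.4%, 21.8% and 39.2% in all), and in Sall4 morpholino embryos also 47 rose and 5 fell (14.5%, 21.7% and 36.3% in all). The medians were 1.50, 1.00 and 1.36 for the subunits and -0.06, -0.06 and -0.05 for all genes. Of the brighter 40 and the dimmer 41 subunits, split by their mean over all arrays, 14 and 21 rose in uninjected embryos of the Nanog experiment, and 31 and 30 in those of the other experiments. The median log2 differences of the brighter and dimmer subunits were 0.57 and 1.23 in the first and 1.07 and 1.97 in the second. In Oct4 morpholino embryos they were 1.00 and 0.96.

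Leaving out 1 array moved 2 of these counts by over 1.5 times. Without replicate 3 of the control morpholino embryos at 20 h, the count of subunits called in control morpholino embryos was 15 in place of 24. In Nanog morpholino embryos it was 12 without replicate 3 at 44 h and 16 without replicate 1 at 20 h, in place of 25.

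**Figure D2:**
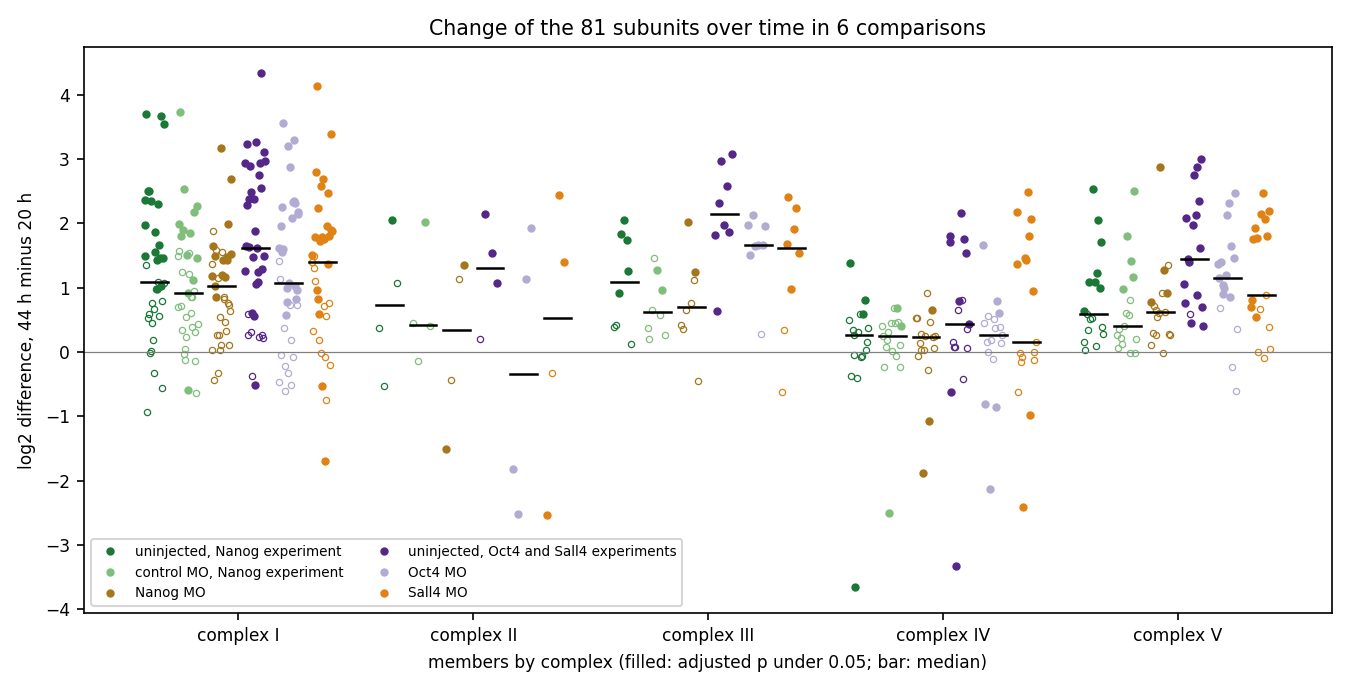
Log2 difference, 44 h minus 20 h, of each of the 81 subunits (points; filled where the adjusted p is under 0.05) by complex in 6 comparisons (colours), with the median of each complex as a bar. In uninjected embryos of the Oct4 and Sall4 experiments the medians are 1.62 for complex I, 1.31 for II, 2.14 for III, 0.44 for IV and 1.45 for V.

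All complexes held subunits that rose, in different numbers. In uninjected embryos of the Nanog experiment 18 of 35 subunits of complex I rose, 1 of 4 of complex II, 5 of 8 of complex III, 3 of 17 of complex IV and 8 of 17 of complex V. In uninjected embryos of the other experiments these counts were 27, 3, 8, 7 and 16. Complex IV had the lowest median among complexes in both (0.26 and 0.44), and no test of a difference between complexes was run. Of the 81 subunits, 7 rose in all 6 comparisons, where 1.93% of all tested genes did: Ndufa5, Ndufa8, Ndufb3 and Ndufb5 of complex I, Uqcrh of complex III, and Atp5e and Atp5k of complex V. A further 14 rose in 5 of the 6, and 13 rose in none. At least 1 rise was found for 32.4% of all genes. The 6 comparisons share no array.

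Among the accessory subunits of complex I, Ndufa5 of the peripheral arm read 5213, 5799 and 4615 in uninjected embryos of the Nanog experiment at 44 h, against 409, 1103 and 172 at 20 h. The times did not overlap, and the log2 difference was 3.54 ± 0.44 (SE; adjusted p = 3.28e-07). In the other experiments uninjected embryos read 3103, 2936 and 3225 at 44 h, against 319, 524 and 190.2 (Oct4) and 395, 333 and 376 (Sall4) at 20 h. Every array at 44 h was again above every array at 20 h (3.12 ± 0.38 SE, adjusted p = 4.68e-08). The differences were 2.27 with the control morpholino, 2.69 with the Nanog, 2.15 with the Oct4 and 3.40 with the Sall4 morpholino, and all passed.

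Ndufa8, an accessory subunit on the intermembrane space side, read 3209, 3994 and 2638 in uninjected embryos of the Nanog experiment at 44 h, against 127, 779 and 129 at 20 h, and 1427, 1355 and 1424 at 44 h in the other experiments, against 149, 35.1 and 85.4 (Oct4) and 35.5, 37.7 and 34.6 (Sall4) at 20 h. The times did not overlap, and the log2 differences were 3.67 ± 0.64 (SE; adjusted p = 5.36e-05) and 4.34 ± 0.56 (SE; adjusted p = 1.1e-07). The rise in the control morpholino embryos (2.18) was lost without their replicate 3 at 20 h (adjusted p = 0.135). The rise in Nanog morpholino embryos (1.99) was lost without replicates 2 and 3 at 44 h and replicates 2 and 3 at 20 h, each left out alone, with adjusted p-values of 0.0801, 0.149, 0.079 and 0.0691.

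Ndufb3 and Ndufb5, accessory subunits of the membrane arm, rose by 1.55 and 1.66 in uninjected embryos of the Nanog experiment and by 1.88 and 2.94 in those of the other experiments (log2). Ndufb3 read 2369.8, 2228 and 2042 in uninjected embryos of the other experiments at 44 h, against 624, 602 and 745 (Oct4) and 402, 757 and 497 (Sall4) at 20 h. All 3 arrays at 44 h were above all 6 at 20 h. The rise of Ndufb5 in control morpholino embryos (1.13) was lost without their replicate 3 at 20 h (0.62, adjusted p = 0.147).

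The largest rises in single comparisons were also mostly of complex I accessory subunits. Ndufa3 of the membrane arm read 2808, 2080.01 and 920.01 in uninjected embryos of the Nanog experiment at 44 h, against 82.0, 238 and 85.9 at 20 h. No array overlapped, and the log2 difference was 3.70 ± 0.69 (SE; adjusted p = 0.000133). It was 3.74 in control morpholino embryos and 3.23 in uninjected embryos of the other experiments, both passing, and 1.88 in Nanog morpholino embryos (adjusted p = 0.0525). Ndufa12, of the peripheral arm, rose by 4.14 in Sall4 morpholino embryos and by 3.57 in Oct4 morpholino embryos. In uninjected embryos of the Nanog experiment it rose by 2.50, and that call was lost without replicate 1 at 20 h (adjusted p = 0.0629). Ndufa7, of the peripheral arm, rose by 2.51 in uninjected embryos of the Nanog experiment and by 2.80 in Sall4 morpholino embryos. Ndufc2, of the membrane arm, rose by 3.17 in Nanog, 3.20 in Oct4 and 2.58 in Sall4 morpholino embryos, and Ndufs4 by 2.53 in control morpholino embryos, which did not pass with the mean of its probe sets (adjusted p = 0.0523).

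The catalytic core of complex I carries the flavin and iron-sulfur clusters that take electrons from NADH. Ndufv1, which binds NADH and the flavin, read 568, 887 and 1249 in uninjected embryos of the Oct4 and Sall4 experiments at 44 h, against 281, 132 and 319 (Oct4) and 64.7, 153 and 38.9 (Sall4) at 20 h. The 3 arrays at 44 h were above the 6 at 20 h (2.55 ± 0.37 SE, adjusted p = 7.85e-07). Ndufs7, an iron-sulfur subunit next to the quinone site, read 795, 998 and 1464 at 44 h, against 129, 250.3 and 201 (Oct4) and 6.34, 94.1 and 75.3 (Sall4) at 20 h (3.26 ± 0.53 SE, adjusted p = 6.51e-06), again without overlap. Ndufs1, the largest iron-sulfur subunit, rose by 2.29 and Ndufv2, of the NADH module, by 1.48 in the same embryos, and Ndufs8, an iron-sulfur subunit, did not pass (0.59 ± 0.28 SE, adjusted p = 0.0888).

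In uninjected embryos of the Nanog experiment the differences of these core subunits were 1.46 ± 0.42 (SE; adjusted p = 0.00955) for Ndufv1 and 1.87 ± 0.62 (SE; adjusted p = 0.0232) for Ndufs7, both passing, and 1.35 for Ndufs1, 0.76 for Ndufv2 and 0.54 for Ndufs8, none of which passed. The Ndufv1 call was lost without replicate 3 at 20 h or replicate 3 at 44 h (adjusted p = 0.0935 and 0.0537). The Ndufs7 call was lost without replicates 2 or 3 at either time, with adjusted p-values of 0.0673, 0.0587, 0.0692 and 0.0791. Ndufs1 rose in Nanog morpholino embryos by 1.65 ± 0.54 (SE; adjusted p = 0.0271) and in control morpholino embryos by 1.99 ± 0.54 (SE; adjusted p = 0.00627). The rise in Nanog morpholino embryos was lost without replicates 2 or 3 of the Nanog morpholino embryos at 44 h (adjusted p = 0.0544 and 0.0939) or replicates 1 or 2 of the Nanog morpholino embryos at 20 h (0.106 and 0.0511).

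Complex III has 2 core proteins, Uqcrc1 and Uqcrc2, the Rieske iron-sulfur protein Uqcrfs1 and small accessory subunits. Uqcrh, the hinge protein beside cytochrome c1, read 4347, 4592 and 4825 in uninjected embryos of the Nanog experiment at 44 h, against 1625, 1758 and 2451 at 20 h, and rose without overlap (1.25 ± 0.26 SE, adjusted p = 0.000464). Its differences in the other 5 comparisons were 0.96 to 2.23, and all passed. Uqcrc1 read 829, 764 and 677 in uninjected embryos of the Oct4 and Sall4 experiments at 44 h, against 41.5, 92.4 and 31.1 (Oct4) and 37.4, 349.98 and 83.8 (Sall4) at 20 h (3.08 ± 0.40 SE, adjusted p = 1.75e-07), with no overlap. In the Nanog experiment it read 1862, 1689.98 and 1389.97 at 44 h, against 1501, 1408 and 1580.05 at 20 h, overlapping and not passing (0.13 ± 0.47 SE, adjusted p = 0.882).

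Uqcrc2 rose in both uninjected series, by 2.06 and 1.97 (log2). Its rise with the control morpholino (1.28) was lost without replicate 3 of those embryos at 20 h (adjusted p = 0.0771). Uqcrfs1 differed by 0.64 ± 0.19 (SE; adjusted p = 0.00628) in uninjected embryos of the Oct4 and Sall4 experiments, by 1.50 in Oct4 morpholino embryos, which also passed, and by 0.42 in uninjected embryos of the Nanog experiment, which did not. Uqcrq, a small subunit, rose by 2.02 in Nanog morpholino embryos, and with the mean of its probe sets that call was lost (adjusted p = 0.952).

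In complex IV opposite changes over time were found for the 2 isoforms of subunit VIb, which faces the intermembrane space where cytochrome c docks. Cox6b1 is the broadly expressed isoform and Cox6b2 the isoform known from testis. Cox6b2 read 424, 199 and 194 in uninjected embryos of the Nanog experiment at 44 h, against 3913, 1889 and 5226 at 20 h. In the other experiments it read 109.7, 145 and 31.2 at 44 h, against 968, 1157 and 908 (Oct4) and 1455, 624 and 913 (Sall4) at 20 h. Each array at 44 h was below each at 20 h, and the log2 differences were -3.65 ± 0.57 (SE; adjusted p = 9.87e-06) and -3.32 ± 0.49 (SE; adjusted p = 1.24e-06).

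Cox6b2 fell in all 6 comparisons, as 6.11% of all tested genes did, and no other subunit fell in more than 3. The other 4 differences were -2.50 with the control, -1.88 with the Nanog, -2.13 with the Oct4 and -2.42 with the Sall4 morpholino, with adjusted p-values of 0.00128, 0.0168, 0.00301 and 0.00098. The fall in Nanog morpholino embryos was lost without their replicate 2 at 44 h (adjusted p = 0.0806).

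Cox6b1 read 2062, 2163 and 2088 in uninjected embryos of the Oct4 and Sall4 experiments at 44 h, against 665, 784 and 539.97 (Oct4) and 521, 554 and 625 (Sall4) at 20 h. All arrays at 44 h were above all at 20 h (1.76 ± 0.19 SE, adjusted p = 4.03e-09). In the Nanog experiment uninjected embryos read 6867, 6342 and 6078 at 44 h, against 3443, 4838 and 4683 at 20 h, without overlap (0.59 ± 0.22 SE, adjusted p = 0.0471). That call was lost in 9 of 14 alternatives, among them those without replicates 1, 2 or 3 of the uninjected embryos at 44 h (adjusted p = 0.128, 0.0925 and 0.0713) or replicates 1 or 3 of the uninjected embryos at 20 h (0.235 and 0.0602). The rise with the control morpholino (0.69 ± 0.22 SE, adjusted p = 0.0197) was lost without replicates 1 or 3 of the control morpholino embryos at 44 h (adjusted p = 0.0626 and 0.053) or replicates 1 or 3 of the control morpholino embryos at 20 h (0.0658 and 0.0744), and that with the Oct4 morpholino (0.80 ± 0.22 SE, adjusted p = 0.00405) without replicate 2 of the Oct4 morpholino embryos at 20 h (adjusted p = 0.0534). With the Sall4 morpholino it was 2.07 ± 0.22 (SE; adjusted p = 7.36e-09), and with the Nanog morpholino 0.46 (adjusted p = 0.144).

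**Figure D3:**
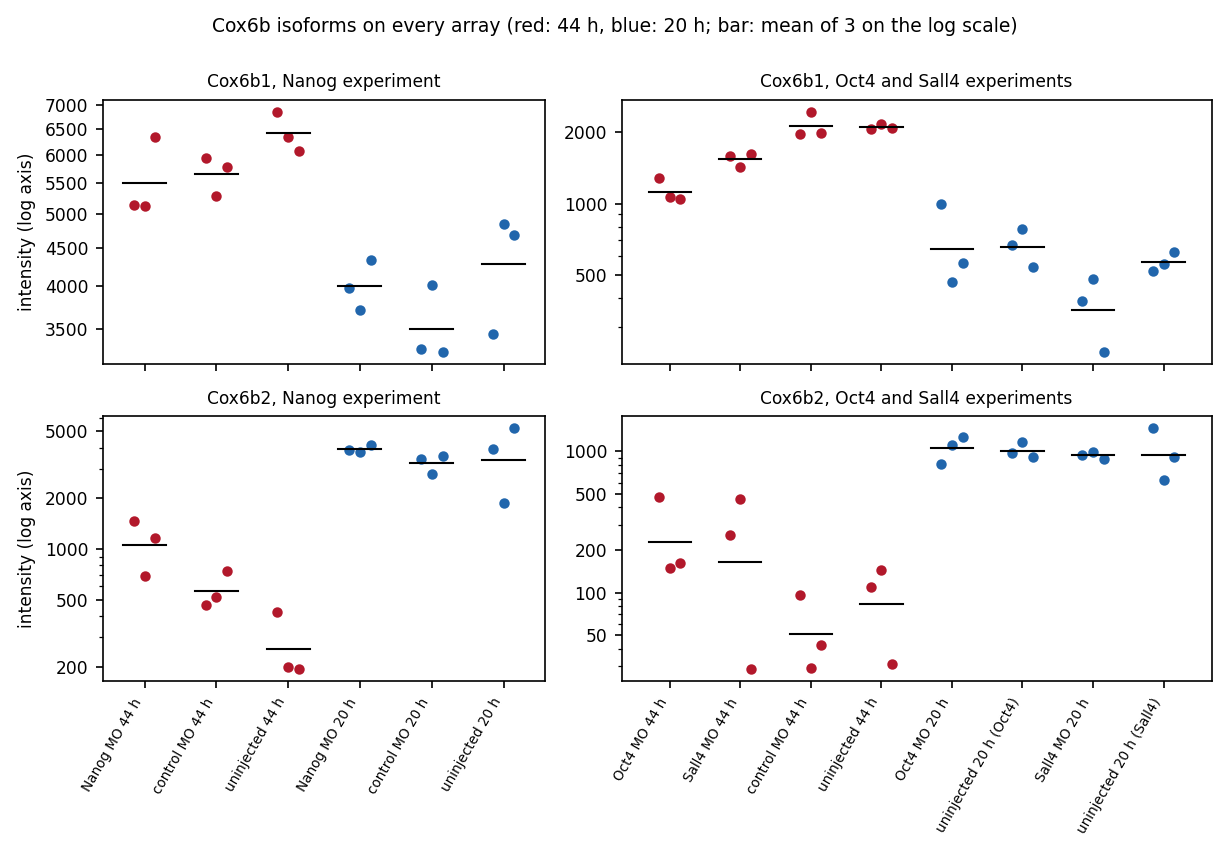
Deposited intensity (log axis) of Cox6b1 and Cox6b2 on every array (points, 3 per group; bar, mean of 3 on the log scale), with 44 h in red left of 20 h in blue and the experiments in separate panels because their scales differ. In uninjected embryos every array at 44 h is below every array at 20 h for Cox6b2 and above it for Cox6b1.

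The other subunits of complex IV included broadly expressed and tissue-restricted isoforms. Cox4i1, the broadly expressed isoform of subunit IV, did not pass in the Nanog experiment (0.51 ± 0.25 SE, adjusted p = 0.141) and rose in the others (1.71 ± 0.21 SE, adjusted p = 7.74e-08), where it read 2952, 2909.6 and 3026 at 44 h, against 925, 669 and 643 (Oct4) and 846, 826 and 1830.4 (Sall4) at 20 h. The 3 arrays at 44 h were above all 6 at 20 h. Cox5a, next to subunit IV, differed by 0.26 and 0.08 in the 2 uninjected series, and none of its 6 differences over time passed. Cox7a2l, known as a supercomplex assembly factor, rose in 5 of 6 comparisons, by 0.82 and 1.55 in uninjected embryos.

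Cox8a, the broadly expressed isoform of subunit VIII, fell in the 3 knockdowns, with log2 differences of -1.07 ± 0.28 (SE; adjusted p = 0.00633) with the Nanog, -0.85 ± 0.28 (SE; adjusted p = 0.0157) with the Oct4 and -0.98 ± 0.28 (SE; adjusted p = 0.00643) with the Sall4 morpholino. It differed by -0.06 and -0.42 in uninjected embryos, and the difference in this change did not pass for Oct4 (-0.51) and Sall4 (-0.48) against uninjected embryos or for Nanog against the control morpholino (-1.01). The calls were lost without replicate 1 of the Nanog morpholino embryos at 44 h (adjusted p = 0.0716), without replicate 1 at 44 h or replicate 3 at 20 h of the Oct4 morpholino embryos (0.103 and 0.0642), and with the mean of probe sets for Sall4 (0.08). Cox6a2, the heart and muscle isoform of subunit VIa, was dim, at 55.1, 53.3 and 36.9 in uninjected embryos of the Oct4 and Sall4 experiments at 44 h, against 120.2, 90.5 and 116 (Oct4) and 64.4, 57.7 and 61.9 (Sall4) at 20 h. It fell there (-0.62 ± 0.25 SE, adjusted p = 0.041) and in Oct4 morpholino embryos (-0.81 ± 0.28 SE, adjusted p = 0.0232), and these calls were lost in 11 of 17 and 5 of 14 alternatives. The first was lost without replicates 1, 2 or 3 of the uninjected embryos at 44 h (adjusted p = 0.055, 0.0624 and 0.192), replicates 1 or 3 of the uninjected embryos of the Oct4 experiment at 20 h (0.0702 and 0.0654) or replicates 1 or 3 of the uninjected embryos of the Sall4 experiment at 20 h (0.0613 and 0.0554). The second was lost without replicates 2 or 3 of the Oct4 morpholino embryos at 44 h (adjusted p = 0.0549 and 0.0549) or replicates 1 or 3 of the Oct4 morpholino embryos at 20 h (0.0832 and 0.077).

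Further tissue-restricted isoforms had low values in uninjected embryos on the dimmer arrays. Cox4i2 (lung), Cox8b (heart and muscle), Cox8c (testis) and Cox7b2 read at most 67.0, 45.8, 23.3 and 122 in uninjected embryos at 44 h there, and Ndufa4l2, the hypoxia-induced relative of Ndufa4, passed in 0 comparisons over time by limma (adjusted; 0 at an unadjusted p under 0.05). Cox7a1, the heart and muscle isoform of subunit VIIa, read 148, 187 and 234 at 44 h, against 41.9, 19.4 and 42.5 (Oct4) and 11.96, 17.5 and 59.6 (Sall4) at 20 h, and rose without overlap (2.17 ± 0.42 SE, adjusted p = 8.08e-05). It rose with the Sall4 morpholino (2.48) too, and did not pass in the Nanog experiment. Cox7a2, the broad isoform, passed in 0 of 6 comparisons, with differences of -0.02 to 0.34. Cox6a1, the broad isoform of VIa, rose by 0.79 ± 0.21 (SE; adjusted p = 0.00265) in uninjected embryos of the Oct4 and Sall4 experiments and by 1.44 ± 0.24 (SE; adjusted p = 2.01e-05) in Sall4 morpholino embryos. Ndufa4, which is now placed in complex IV although its symbol counts it in complex I, did not pass in any, with differences of -0.74 to 0.55. Single arrays of 566 for Cox4i2 and 317 for Cox8b, in Sall4 and Oct4 morpholino embryos at 44 h, stood apart from replicates of 66.5 and 25.9, and of 36.2 and 22.6. The Cox4i2 rise over time with the Sall4 morpholino (1.81 ± 0.53 SE, adjusted p = 0.00742) was lost without that array (0.196).

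Of the 17 subunits of complex V, 0 fell in any of the 6 comparisons by limma, while in Oct4 morpholino embryos 1 was lower by the unadjusted p alone. Atp5e, the epsilon subunit of the central stalk, read 2497, 1812 and 1554 in uninjected embryos of the Nanog experiment at 44 h, against 278, 498 and 231 at 20 h, with no overlap (2.53 ± 0.44 SE, adjusted p = 4.81e-05). In the other experiments it read 1226, 922 and 1209 at 44 h, against 266, 354 and 134 (Oct4) and 80.5, 165 and 64.1 (Sall4) at 20 h (2.75 ± 0.38 SE, adjusted p = 4.15e-07). Atp5k, subunit e of the membrane part, read 4389.7, 4293 and 3965 at 44 h, against 1417, 1121 and 1571 (Oct4) and 837, 1959.9 and 1542 (Sall4) at 20 h, also without overlap (1.62 ± 0.20 SE, adjusted p = 7.07e-08). Its 6 differences were 0.92 to 1.80, and all passed. Atp5d, the delta subunit of the central stalk, rose by 2.50 ± 0.50 (SE; adjusted p = 0.000343) in control morpholino embryos and by 3.01 ± 0.43 (SE; adjusted p = 8.75e-07) in uninjected embryos of the Oct4 and Sall4 experiments.

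The alpha and beta subunits of the catalytic head were bright on every array. Atp5a1, the alpha subunit, read 7035, 6459.8 and 6212 in uninjected embryos of the Oct4 and Sall4 experiments at 44 h, against 2537, 2616 and 3059.9 (Oct4) and 3348, 3739.9 and 3666 (Sall4) at 20 h. It rose without overlap there (1.07 ± 0.14 SE, adjusted p = 1.67e-07) and in the Nanog experiment (0.65 ± 0.16 SE, adjusted p = 0.00288). Atp5b, the beta subunit, read 10732, 10619 and 10951 in the Nanog experiment at 44 h, against 9966, 10122 and 10053 at 20 h, and did not pass (0.10 ± 0.18 SE, adjusted p = 0.748), with all arrays within a narrow range. In the other experiments it rose by 0.88 ± 0.15 (SE; adjusted p = 1.9e-05). The c subunit of the rotor ring is encoded by 3 genes with the same mature protein. Atp5g1 rose by 2.08, Atp5g2 by 2.35 and Atp5g3 by 0.45 in uninjected embryos of the Oct4 and Sall4 experiments. The last call was lost without replicates 1, 2 or 3 of the uninjected embryos at 44 h (adjusted p = 0.11, 0.142 and 0.0502), replicates 1 or 2 of the uninjected embryos of the Oct4 experiment at 20 h (0.0553 and 0.0872) or replicates 1 or 3 of the uninjected embryos of the Sall4 experiment at 20 h (0.0632 and 0.0817). In the Nanog experiment only Atp5g2 of the 3 passed (2.06 ± 0.52 SE, adjusted p = 0.0033), and not with the mean of its probe sets (0.287).

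In complex II, Sdhb, the iron-sulfur subunit, rose over time and Sdha, the flavoprotein that oxidises succinate, was lower at 44 h with each of the 3 morpholinos. Sdhb read 2734, 2647 and 2070.4 in uninjected embryos of the Nanog experiment at 44 h, against 499, 976 and 401 at 20 h, and 897, 941 and 830.1 at 44 h in the others, against 239, 382 and 374 (Oct4) and 152, 687 and 180.1 (Sall4) at 20 h. The times did not overlap (2.05 ± 0.43 SE, adjusted p = 0.000481 and 1.54 ± 0.37 SE, adjusted p = 0.000956). Sdhd, a membrane anchor, rose by 1.08 ± 0.38 (SE; adjusted p = 0.0216) in uninjected embryos of the Oct4 and Sall4 experiments, lost without replicate 2 of the Oct4 experiment at 20 h (0.0514) or replicates 2 or 3 at 44 h (0.0976 and 0.063), and did not pass in the Nanog experiment (1.08). Sdha differed by 0.37 and 0.20 over time in uninjected embryos, neither passing.

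Sdha read 152, 45.7 and 311 in Sall4 morpholino embryos and 165, 71.9 and 836 in Oct4 morpholino embryos at 44 h, against 868, 1101 and 1071 in control morpholino and 694, 839 and 771 in uninjected embryos. The Sall4 morpholino arrays were all below both, while replicate 3 of the Oct4 morpholino embryos lay within the uninjected range. In the Nanog experiment it read 1066, 936 and 1134 with the Nanog morpholino at 44 h, against 3464, 5389.7 and 3857 with the control morpholino and 4629.6, 4697 and 4184 in uninjected embryos, with no overlap. Against control morpholino embryos the log2 differences were -2.77 ± 0.54 (SE; adjusted p = 0.00191) for Sall4, -2.10 ± 0.54 (SE; adjusted p = 0.00832) for Oct4 and -1.98 ± 0.54 (SE; adjusted p = 0.0254) for Nanog. Sall4 and Oct4 share their control arrays.

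The Sall4 call on Sdha held in all 14 alternatives. The Oct4 call was lost without replicate 2 of the Oct4 morpholino embryos (-1.38, adjusted p = 0.103). The Nanog call was lost without replicates 1 or 2 of the Nanog morpholino embryos (0.0741 and 0.0718) or replicates 2 or 3 of the control morpholino embryos (0.123 and 0.052). Of the other 3 probe sets of Sdha, the next brightest differed by -1.99 (Sall4), -1.88 (Oct4) and -0.80 (Nanog), and both dim ones by -0.19 to -0.99. Against uninjected embryos at 44 h, a comparison added after seeing the data, Sdha differed by -2.38, -1.71 and -2.09 (adjusted p = 0.00493, 0.0277 and 0.0125). At 20 h the differences were 0.18, 0.47 and -0.02, and none passed.

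Sdha fell over time with each morpholino, with log2 differences of -2.54 ± 0.54 (SE; adjusted p = 0.000315) with the Sall4 morpholino, -1.81 ± 0.54 (SE; adjusted p = 0.0072) with the Oct4 morpholino and -1.51 ± 0.54 (SE; adjusted p = 0.0449) with the Nanog morpholino. With the mean of its probe sets the Sall4 and Oct4 falls did not pass (0.0809 and 0.429). The Oct4 fall was also lost without replicate 2 of the Oct4 morpholino embryos at 44 h (0.116), and the Nanog fall in 9 of 14 alternatives, among them leaving out any 1 array of its groups (adjusted p up to 0.276). The change did not differ past the threshold from that in uninjected embryos for Sall4 (-2.56 ± 0.76 SE, adjusted p = 0.0839) and Oct4 (-2.19 ± 0.76 SE, adjusted p = 0.0879), or from that in control morpholino embryos for Nanog (-1.96 ± 0.76 SE, adjusted p = 0.29).

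**Figure D4:**
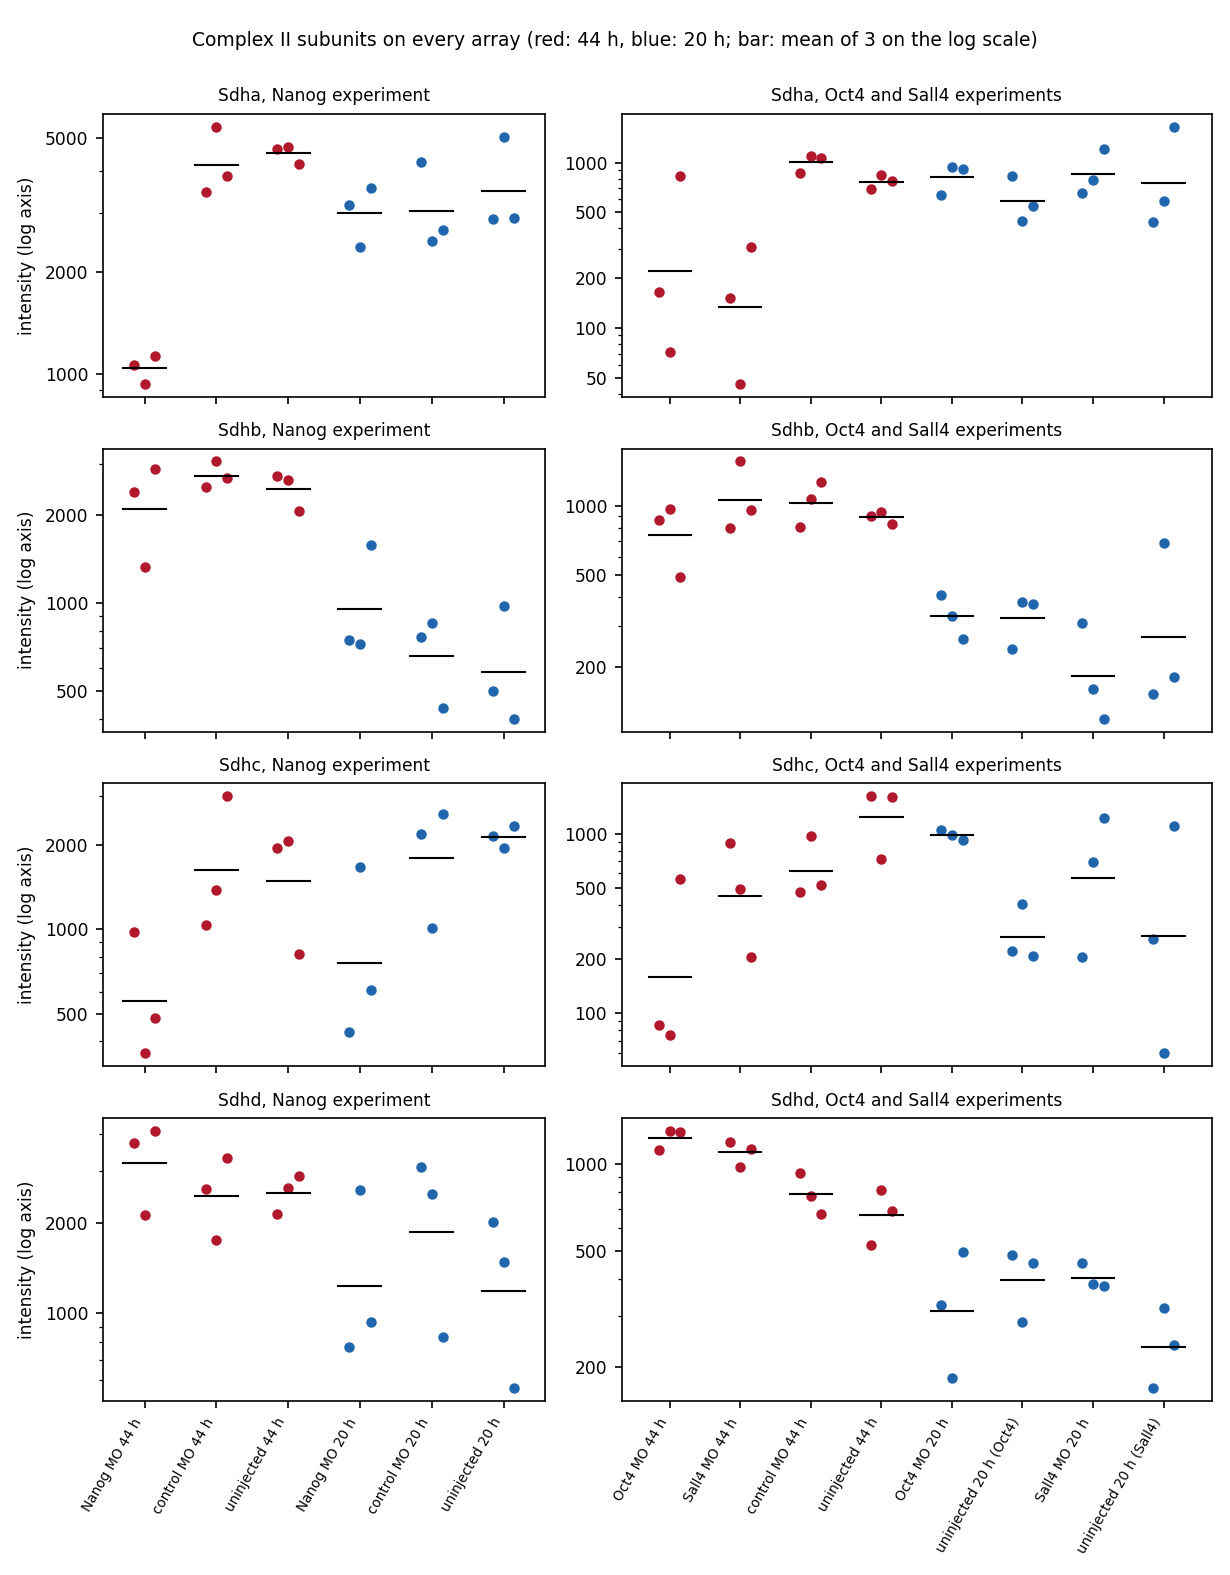
Deposited intensity (log axis) of the 4 complex II subunits on every array (points, 3 per group; bar, mean of 3 on the log scale; 44 h in red, 20 h in blue), with the experiments in separate panels because their scales differ. Sdha is at 936 to 1134 with the Nanog morpholino at 44 h, against 3464 to 5389.7 with the control morpholino, while Sdhb is higher at 44 h than at 20 h in uninjected embryos of each experiment.

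Sdhc, a membrane anchor, went opposite ways over time in Oct4 morpholino embryos and in uninjected embryos of the Oct4 and Sall4 experiments. It read 85.5, 75.6 and 556 in Oct4 morpholino embryos at 44 h and 1046, 979 and 921 at 20 h. Uninjected embryos read 1616, 717 and 1605 at 44 h, and 220.5, 403 and 209 at 20 h in the Oct4 experiment. In the Sall4 experiment uninjected embryos read 59.3 to 1101 at 20 h, which overlapped the uninjected arrays at 44 h. Sdhc had the highest residual SD of the subunits (0.96, log2). At 44 h the Oct4 morpholino arrays were below the uninjected ones. The change over time was -2.51 ± 0.75 (SE; adjusted p = 0.00792) with the morpholino, and the difference of the 2 changes was -4.66 ± 1.06 (SE; adjusted p = 0.00752), which held in all 20 alternatives. The fall itself was lost without replicate 2 of the Oct4 morpholino embryos at 44 h (0.0562). Against the control morpholino at 44 h, Sdhc differed by -1.86 ± 0.75 (SE; adjusted p = 0.113), which did not pass.

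With the Oct4 morpholino 9 subunits were lower and 1 was higher at 44 h than with the control morpholino. Of all tested genes 6.18% were lower and 5.38% higher (11.6% in all), and the median difference was -0.33 for the 81 subunits and 0.02 for all genes. Of the subunits, 62 of 81 had a difference below 0. The 9 were Ndufs4 and Ndufa9 of complex I, Sdha, Uqcr11 of complex III, Cox6b1, Cox7a2l, Cox6a1 and Cox7b2 of complex IV, and Atp5c1 of complex V, and Cox6b2 was higher. The summed intensity of the embryo markers was 18514 to 19263 on these arrays, against 21713 to 24955 with the control morpholino; its part in the differences was not tested.

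Ndufs4, an accessory subunit of the NADH module whose loss causes Leigh-like disease in mice and humans, read 55.0, 19.8 and 43.2 in Oct4 morpholino embryos at 44 h, against 538, 687 and 676 with the control morpholino and 609, 530.04 and 775 in uninjected embryos. The Oct4 morpholino arrays were far below all others at 44 h, and Oct4 morpholino embryos at 20 h read 29.1 to 114. The log2 difference was -3.60 ± 0.52 (SE; adjusted p = 1.55e-05) and passed in all 14 alternatives. Of its 3 dimmer probe sets, the brightest differed by -2.69 and the others by -1.01 and -0.20. Uqcr11, a small accessory subunit of complex III, read 137, 29.5 and 41.5 with the Oct4 morpholino, against 326, 356 and 253 with the control morpholino and 395, 374 and 781 without injection. The groups did not overlap (-2.14 ± 0.46 SE, adjusted p = 0.00178), and the call held in all 14 alternatives.

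In complex IV, Cox6b1 read 1282, 1063 and 1041 with the Oct4 morpholino at 44 h, against 1977, 2448 and 1988 with the control morpholino, without overlap (-0.91 ± 0.22 SE, adjusted p = 0.00528), and the call held in all 14 alternatives. Cox6b2 read 472, 149.7 and 162 with the Oct4 morpholino, against 96.5, 29.5 and 42.4 with the control morpholino and 109.7, 145 and 31.2 without injection. It was higher than in control morpholino embryos without overlap (1.86 ± 0.57 SE, adjusted p = 0.0277), and both differences ran against the change over time. The Cox6b2 call was lost without replicate 1 of the Oct4 morpholino embryos (0.176) and without replicates 2 or 3 of the control morpholino embryos (0.135 and 0.0894), and against uninjected embryos Cox6b2 was not called.

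The remaining 5 were smaller or dim. Cox7a2l differed by -0.79 ± 0.21 (SE; adjusted p = 0.0106), lost without replicate 1 of the Oct4 morpholino embryos (0.0741). Cox6a1 differed by -0.80 ± 0.24 (SE; adjusted p = 0.0295), Ndufa9, at the junction of the arms of complex I, by -0.59 ± 0.19 (SE; adjusted p = 0.0348), and Atp5c1, the gamma subunit of the central stalk, by -0.61 ± 0.20 (SE; adjusted p = 0.0406). The Cox6a1 call was lost without replicates 1 or 3 of the Oct4 morpholino embryos (adjusted p = 0.0883 and 0.0865) or replicates 1 or 2 of the control morpholino embryos (0.134 and 0.0896), the Ndufa9 call without replicates 1 or 3 of the Oct4 morpholino embryos (adjusted p = 0.215 and 0.0604) or replicates 2 or 3 of the control morpholino embryos (0.12 and 0.133), and the Atp5c1 call without replicates 1 or 2 of the Oct4 morpholino embryos (adjusted p = 0.145 and 0.0845) or replicates 1, 2 or 3 of the control morpholino embryos (0.0729, 0.14 and 0.0814). Cox7b2 read 21.5, 4.13 and 9.39 with the Oct4 morpholino, against 104, 77.2 and 73.9 with the control morpholino (-1.90 ± 0.57 SE, adjusted p = 0.0256). It was lost without replicates 2 or 3 of the Oct4 morpholino embryos (adjusted p = 0.0951 and 0.0669) or replicates 1, 2 or 3 of the control morpholino embryos (0.0874, 0.0619 and 0.0539). The count of 10 was 5 without replicate 2 and 6 without replicate 3 of the control morpholino embryos.

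Against uninjected embryos, added after seeing the data, 11 subunits were lower and 0 higher with the Oct4 morpholino, where 7.21% of all genes were lower and 14.4% changed in all (limma). Ndufs4 (-3.60), Sdhc (-2.84), Uqcr11 (-2.77) and Sdha (-1.71) had the largest differences. Sdhc, Atp5pb (subunit b of the peripheral stalk, -1.43), Cox7c (-1.22), Ndufa10 (-1.05) and Ndufb3 (-0.68) were called here but not against the control morpholino. Cox6a1, Ndufa9 and Cox7b2, called against the control morpholino, did not pass here (adjusted p = 0.0522, 0.269 and 0.426).

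With the Sall4 morpholino at 44 h, 6 subunits were lower and 0 higher, where 2.13% of all tested genes were lower, 1.83% higher and 3.97% changed in all. The median difference was -0.33 for the 81 subunits, 67 of which were below 0, and -0.02 for all genes. The summed embryo markers were 16966 to 21814 on these arrays, against 21713 to 24955 with the control morpholino, and their part was not tested. Sdha was the subunit with the largest difference. The other 5 were Ndufb2, Ndufa9, Ndufb1 and Ndufb10 of complex I and Cox8a of complex IV.

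Ndufb2, of the membrane arm, read 344, 87.1 and 547 in Sall4 morpholino embryos, against 718, 683 and 820.1 in control morpholino embryos, without overlap (-1.45 ± 0.36 SE, adjusted p = 0.0157). Ndufb10, of the membrane arm on the intermembrane space side, read 431, 219 and 916 in Sall4 morpholino embryos, against 1450.2, 1152 and 1185 in control morpholino embryos (-1.46 ± 0.41 SE, adjusted p = 0.0374), also without overlap. Replicate 2 of the Sall4 morpholino embryos was the lowest for both, and without it neither passed (0.239 and 0.331). Ndufb2 was also lost without replicate 3 of the control morpholino embryos (0.0705), and Ndufb10 without replicate 1 of the Sall4 morpholino embryos (0.0809) or any control morpholino replicate (0.122, 0.0872 and 0.0919).

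Ndufb1, a short membrane-arm subunit, read 68.9, 34.6 and 38.4 with the Sall4 morpholino, against 329.5, 351 and 255 with the control morpholino, without overlap (-2.40 ± 0.63 SE, adjusted p = 0.0258). Ndufa9 differed by -0.73 ± 0.19 (SE; adjusted p = 0.0208) and Cox8a by -0.97 ± 0.28 (SE; adjusted p = 0.0438). The Ndufb1 call was lost without replicates 2 or 3 of the Sall4 morpholino embryos (adjusted p = 0.117 and 0.057) or replicates 1, 2 or 3 of the control morpholino embryos (0.0751, 0.0944 and 0.0581), the Ndufa9 call without replicate 2 of the Sall4 morpholino embryos (adjusted p = 0.216) or replicates 2 or 3 of the control morpholino embryos (0.0895 and 0.104), and the Cox8a call without replicates 1 or 2 of the Sall4 morpholino embryos (adjusted p = 0.0997 and 0.245) or replicates 1, 2 or 3 of the control morpholino embryos (0.062, 0.188 and 0.109). The count of 6 was 3, 2 and 1 without control morpholino replicates 1, 2 and 3, and 2 without replicate 2 of the Sall4 morpholino embryos. Against uninjected embryos 6 were lower and 0 higher (all genes, 3.39% lower and 6.95% in all; limma). Sdha, Ndufb1, Ndufb2 and Cox8a were called in both, Ndufa9 and Ndufb10 not against uninjected embryos (adjusted p = 0.138 and 0.0900), and Ndufs3 (-1.37) and Atp5c1 (-0.86) only there.

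With the Nanog morpholino at 44 h only Sdha passed among the 81, and 1.56% of all genes were lower, 3.44% higher and 5.01% changed in all. The median difference was -0.06 for the subunits and 0.05 for all genes. The summed embryo markers were 35137 to 42355 on these arrays, against 41980 to 45469 with the control morpholino, and their part was not tested. The count was 4 without replicate 3 of the Nanog morpholino embryos, 0 without their replicate 1 and 0 without replicates 2 or 3 of the control morpholino embryos. Against uninjected embryos 1 subunit was lower, Sdha, and 1 higher, Cox6b2 (1.99), where 8.37% of all genes changed. Cox6b2 read 1463, 692 and 1164 with the Nanog morpholino, against 467, 518 and 742 with the control morpholino and 424, 199 and 194 without injection, and its difference from the control morpholino did not pass (0.89 ± 0.57 SE, adjusted p = 0.474), with replicate 2 inside the control range.

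Oct4 and Sall4 morpholino embryos at 44 h, compared directly, differed in 5 subunits, 3 higher and 2 lower with the Oct4 morpholino, where 7.07% of all genes differed (3.71% higher, 3.36% lower). Ndufs4 read 55.0, 19.8 and 43.2 with the Oct4 morpholino, against 461, 427 and 230.4 with the Sall4 morpholino (-2.81 ± 0.52 SE, adjusted p = 0.000631), and Uqcr11 read 137, 29.5 and 41.5 with the Oct4 morpholino, against 292, 193 and 393 with the Sall4 morpholino (-2.01 ± 0.46 SE, adjusted p = 0.00482). Neither overlapped, and the Ndufs4 call was lost only with the mean of its probe sets (0.0564). Ndufb10 read 1596, 2256 and 2128 with the Oct4 morpholino, against 431, 219 and 916 with the Sall4 morpholino (2.11 ± 0.41 SE, adjusted p = 0.00121), and Ndufb2 read 1021, 975 and 796 with the Oct4 morpholino, against 344, 87.1 and 547 with the Sall4 morpholino (1.77 ± 0.36 SE, adjusted p = 0.00172). Both were higher with the Oct4 morpholino without overlap, and both calls, like that of Uqcr11, held in all 14 alternatives. Uqcr10, a small subunit of complex III, read 1044, 1118 and 1128 with the Oct4 morpholino, against 368, 169 and 1130.4 with the Sall4 morpholino, and overlapped through replicate 3 of the Sall4 morpholino embryos (1.36 ± 0.43 SE, adjusted p = 0.0475). That call was lost without replicates 1, 2 or 3 of the Oct4 morpholino embryos (adjusted p = 0.0876, 0.101 and 0.104) or replicates 1 or 2 of the Sall4 morpholino embryos (0.129 and 0.366).

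**Figure D5:**
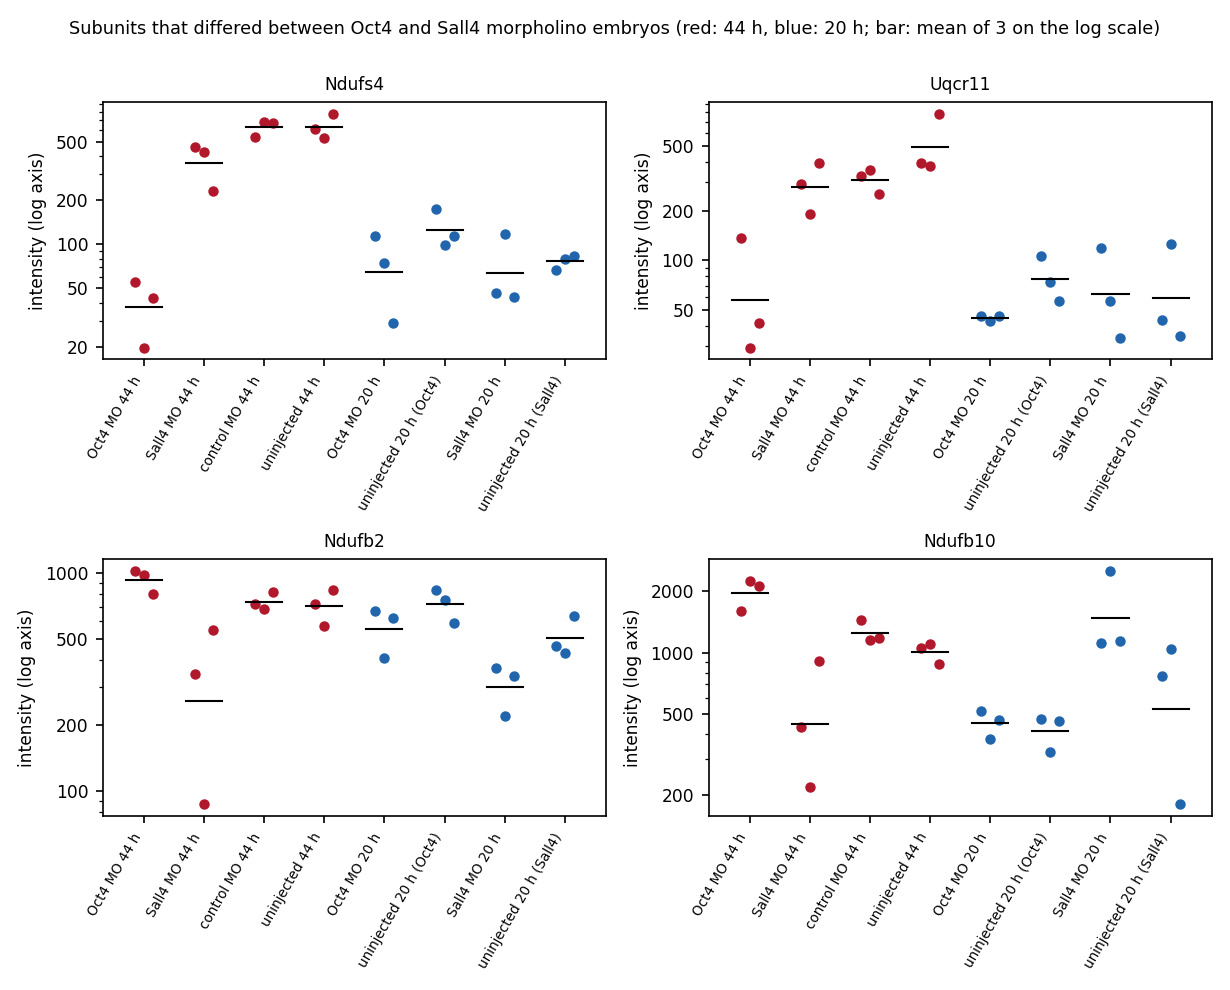
Deposited intensity (log axis) of Ndufs4, Uqcr11, Ndufb2 and Ndufb10 on the 24 arrays of the Oct4 and Sall4 experiments (points, 3 per group; bar, mean of 3 on the log scale; 44 h in red, 20 h in blue). Ndufs4 is at 19.8 to 55.0 with the Oct4 morpholino at 44 h, against 230.4 to 461 with the Sall4 and 538 to 687 with the control morpholino.

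At 20 h few subunits passed in the knockdowns. The adjustment depends on all genes of a comparison, so counts at 20 h and at 44 h do not share a common cut on the unadjusted p. Few calls at 20 h therefore do not show that few subunits differed. Against uninjected embryos at 20 h, 0 of 81 passed with the Oct4 morpholino (limma; 9 at an unadjusted p under 0.05), where 2.02% of all genes passed (1.84% lower). With the Sall4 morpholino 0 passed at 20 h (25 unadjusted), where 0.233% of all genes did (0.0840% lower). The unadjusted share of all genes is not given here, so the unadjusted counts of subunits cannot be set against it. The Oct4 count was 3 without replicate 1 of the Oct4 morpholino embryos, and the Sall4 count was 2, 5 and 1 without uninjected replicate 1, uninjected replicate 2 and Sall4 morpholino replicate 2. With the Nanog morpholino 1 subunit was lower at 20 h than with the control morpholino, where 0.620% of all genes differed and 0.388% were lower. It was Ndufc2, at 85.2, 258 and 139 with the Nanog morpholino, against 757, 1644 and 308 with the control morpholino (-2.20 ± 0.50 SE, adjusted p = 0.0291). These groups did not overlap, and the call was lost in 7 of 14 alternatives, among them leaving out replicates 1 or 3 of the Nanog morpholino or 1 or 2 of the control morpholino embryos (0.175, 0.0724, 0.0941 and 0.237). Control morpholino and uninjected embryos differed in 0 subunits at 20 h (limma; 7 unadjusted) and in 0 at 44 h in the Nanog experiment (1 unadjusted) and in the Oct4 and Sall4 experiment (1 unadjusted), where 0.0905%, 0.349% and 0.0969% of all genes differed. At 20 h 0.0323% of all genes were lower, and for the control group that Oct4 and Sall4 share 0.0646% were higher and 0.0323% lower.

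The change over time was tested for a difference between each knockdown and the embryos it was set against. For Nanog against the control morpholino 0 subunits passed (limma; 6 unadjusted; 0.827% of all genes, 0.614% higher). For Oct4 against uninjected embryos 4 passed, all lower, where 2.07% of all genes were lower and 5.66% passed in all: Sdhc, Ndufs4, Uqcr11 and Ndufa10. For Sall4 against uninjected embryos 3 passed, all lower, where 0.821% were lower and 1.47% passed in all: Ndufb10, Ndufs3 and Uqcr10. The Oct4 count was 2 without replicate 3 of the Oct4 morpholino embryos at 20 h or of the uninjected embryos at 44 h. The Sall4 count was 0 without replicate 2 of the Sall4 morpholino embryos at 44 h, 1 without their replicate 3 at 20 h and 6 without replicate 2 of the uninjected embryos at 20 h. For Ndufs4 the change over time was -0.60 with the Oct4 morpholino and 2.49 in uninjected embryos, where the 20 h groups of both experiments enter the second value. For Ndufb10 it was -1.70 with the Sall4 morpholino, 2.09 with the Oct4 morpholino and 1.08 in uninjected embryos.

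Other genes of the pathway were read from 3 lists. Of 39 tested assembly factors, which build the complexes but are not part of them, 8 rose and 3 fell over time in uninjected embryos of the Nanog experiment (all genes, 9.28% and 16.3%), and 15 rose and 4 fell in those of the other experiments (20.4% and 25.0%). With the Oct4 morpholino at 44 h, 6 were lower and 0 higher than with the control morpholino (all genes, 6.18% lower and 5.38% higher). Cox11, which delivers copper to complex IV, read 74.8, 40.0 and 108 with the Oct4 morpholino, against 618, 506 and 602 with the control morpholino (-2.78 ± 0.34 SE, adjusted p = 1.28e-06), and Ecsit, a complex I assembly factor, read 289.8, 99.9 and 90.3 with the Oct4 morpholino, against 579, 797 and 655 with the control morpholino (-2.14 ± 0.31 SE, adjusted p = 2.06e-05). Neither overlapped, and both calls held in all 14 alternatives. Timmdc1 (-2.30), Cox10 (-2.05), Atpaf1 (-1.92) and Tmem70 (-0.61) also passed, each lost in 2 to 7 of 14 alternatives, with adjusted p-values of up to 0.0547, 0.149, 0.114 and 0.155. With the Sall4 and the Nanog morpholino 0 passed at 44 h (limma; 0 and 4 at an unadjusted p under 0.05).

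Cox11 and Ecsit were also lower with the Oct4 than with the Sall4 morpholino (-2.48 ± 0.34 SE, adjusted p = 1.56e-05 and -1.55 ± 0.31 SE, adjusted p = 0.00174), among 5 assembly factors lower and 1 higher (all genes, 3.36% and 3.71%). At 20 h 3 were lower with the Oct4 morpholino than in uninjected embryos (1.84% of all genes), Ecsit (-2.39 ± 0.31 SE, adjusted p = 1.67e-05), Tmem70 (-1.08) and Cox17 (-1.19). With the Nanog morpholino 3 were lower at 20 h (0.388% of all genes), Ndufaf1 (-1.93), Coa3 (-1.90) and Ecsit (-1.37), each lost in 6 or 7 of 14 alternatives (adjusted p up to 0.371, 0.249 and 0.258), and with the Sall4 morpholino Cox20 was higher, as were 0.149% of all genes (1.51, lost in 6 of 14 with adjusted p up to 0.91).

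Of 21 tested factors of mitochondrial biogenesis and transcription, 5 rose and 0 fell over time in uninjected embryos of the Nanog experiment (all genes, 9.28% and 16.3%), and 7 rose and 1 fell in those of the others (20.4% and 25.0%). Nrf1, which activates respiratory genes, read 49.8, 282 and 50.4 with the Oct4 morpholino at 44 h, against 646, 841 and 846 with the control morpholino, without overlap (-2.85 ± 0.41 SE, adjusted p = 1.62e-05). With the mean of its probe sets the difference was -0.38 and did not pass (0.356), so its probe sets disagree. With the Sall4 morpholino it was -1.40 ± 0.41 (SE; adjusted p = 0.0471), lost in 10 of 14 alternatives (adjusted p up to 0.292). Gabpa was lower with the Oct4 morpholino at 20 h (-0.62, lost in 11 of 14 with adjusted p up to 0.339). Among 5 tested carriers and subunits outside the symbol rule, Cyc1, the cytochrome c1 of complex III, and Cyct, the testis cytochrome c, were lower with the Oct4 morpholino at 44 h (-1.36 and -1.08, lost in 3 and 7 of 14 with adjusted p up to 0.116 and 0.245), and Cycs, the somatic cytochrome c, and Cyct with the Sall4 morpholino (-0.84 ± 0.18 SE, adjusted p = 0.00507 and -1.41, lost in 1 and 3 of 14). Ndufab1, the acyl carrier protein of complex I, fell over time in the comparisons given here. The log2 differences were -1.46 in uninjected, -1.98 in Oct4 morpholino and -1.99 in Sall4 morpholino embryos of the Oct4 and Sall4 experiments (adjusted p = 1.24e-08, 1.38e-09 and 1.48e-09). They were -1.27 with the Nanog and -0.61 with the control morpholino (adjusted p = 1.62e-05 and 0.0194). The difference in uninjected embryos of the Nanog experiment is not given here.

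The genes outside the set whose 14 group means followed the mean of the 81 subunits most closely, after centring within each scale, were Fdps (Pearson r = 0.993), Klf2 (0.991), Eif3l (0.987), Slc6a8 (0.987), Fkbp2 (0.986), Cyp2s1 (0.986), Rpsa (0.985), Prpf39 (0.984), Pemt (0.984) and Timm13 (0.983). These values describe 14 points that share 2 times, so any gene that rises over time alike ranks high. Of the subunits themselves, Ndufa8 followed the mean most closely (0.983). Cox6b2 ran against it (-0.957), as did Ndufa2, an accessory subunit of the peripheral arm (-0.763), Cox6a2 (-0.624) and Cox8a (-0.552), while Ndufa4l2 (-0.264) and Sdha (-0.197) were weakly negative.

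Ndufa2 was a subunit of complex I that fell over time in 3 comparisons, with log2 differences of -0.50 ± 0.15 (SE; adjusted p = 0.00476) in uninjected embryos of the Oct4 and Sall4 experiments, -0.59 ± 0.17 (SE; adjusted p = 0.00917) with the control morpholino and -0.53 ± 0.17 (SE; adjusted p = 0.0135) with the Sall4 morpholino. The control morpholino call was lost without its replicate 2 at 44 h (0.0849), and the Sall4 call without replicate 3 at 44 h or replicate 3 at 20 h (0.0886 and 0.0503). Ndufb10 fell in Sall4 morpholino embryos (-1.70 ± 0.41 SE, adjusted p = 0.00144), where it read 431, 219 and 916 at 44 h, against 1114, 2527 and 1146 at 20 h, without overlap.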

How the data were processed

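The deposited intensities were made by the authors from single-colour expression arrays; the summarisation and normalization are not given in the sources used here. Per the labels' protocols, total RNA was extracted with a PicoPure kit, amplified with the NuGEN WT-Ovation One-Direct system and labelled with biotin. The table held 45101 probe sets; 34945 had 1 gene symbol, 932 had several, 9160 had none and 64 were controls, so that only the first were used. Of the probe sets left out, 9 carried a symbol of the set among several.

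Values were used as deposited, as log2(intensity + 16). Each gene took its probe set with the highest mean. Genes needed a mean above 71.15, the median of the table, in at least 1 of the 14 groups. One group-means fit of 42 arrays (limma 3.58.1 in R 4.3.3, eBayes, 28 residual degrees of freedom) gave 16 comparisons and 3 differences of changes, with Benjamini-Hochberg adjustment over 15478 genes. The steps were tested on simulated data, with 200 genes changed in the Oct4 morpholino against control morpholino comparison at 44 h. They recovered 28% of changes of log2 1 and 77% of changes of log2 2, with 4 false calls. A subunit that did not pass may therefore still have changed. The 24 and 18 arrays of the 2 scales entered 1 fit for the spread and were not compared with each other.

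Every called subunit is named where 12 or fewer passed, otherwise the 6 largest rises and falls, besides catalytic subunits and isoform families chosen by role. The subunits and the lists were chosen with earlier results of these data known. Alternatives were pseudocounts of 1 and 64, no filter, quantile normalization, the mean of probe sets, arrays of the own scale, a replicate block and each array left out. A filter on the own scale and uninjected embryos in place of the control morpholino at 44 h were added after seeing the data.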

Additional observations from a re-analysis of the deposited data

Results flagged for a closer look

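The change over time differed between knockdown and uninjected embryos for 7 subunits by the interaction term of the limma fit (adjusted over all tested genes). Of the 81, 4 passed for Oct4, all lower, where 2.07% of all tested genes were lower and 5.66% passed in all. For Sall4 3 passed, all lower, where 0.821% were lower and 1.47% passed in all. For Oct4, the change between 20 h and 44 h was -2.51 for Sdhc, -0.60 for Ndufs4, 0.28 for Uqcr11 and -0.51 for Ndufa10, a subunit of the membrane arm, in Oct4 morpholino embryos. The differences from uninjected embryos of the same experiments were -4.66 ± 1.06 (SE; adjusted p = 0.00752) for Sdhc, -2.79 ± 0.73 (SE; adjusted p = 0.02) for Ndufs4, -2.16 ± 0.64 (SE; adjusted p = 0.0425) for Uqcr11 and -1.88 ± 0.46 (SE; adjusted p = 0.0129) for Ndufa10. Ndufa10 read 356, 475 and 736 in Oct4 morpholino embryos at 44 h and 564, 615 and 1078 at 20 h, against 1248, 983 and 959 in uninjected embryos at 44 h and 375, 513 and 333 at 20 h. The Ndufa10 call was lost without replicate 3 of the Oct4 morpholino embryos at 20 h (adjusted p = 0.053), the Ndufs4 call without replicate 2 of the Oct4 morpholino embryos at 44 h (adjusted p = 0.0548), replicate 1 of the Oct4 morpholino embryos at 20 h (0.0558) or replicate 3 of the uninjected embryos at 44 h (0.0514), and the Uqcr11 call without replicates 2 or 3 of the Oct4 morpholino embryos at 44 h (adjusted p = 0.123 and 0.0954), replicates 1, 2 or 3 of the Oct4 morpholino embryos at 20 h (0.0668, 0.0716 and 0.0811), replicate 3 of the uninjected embryos at 44 h (0.133) or replicates 1, 2 or 3 of the uninjected embryos of the Oct4 experiment at 20 h (0.051, 0.0741 and 0.109).

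For Sall4 the differences were -2.61 ± 0.58 (SE; adjusted p = 0.0196) for Ndufb10, -2.57 ± 0.59 (SE; adjusted p = 0.0215) for Ndufs3, a core subunit of the quinone module, and -2.59 ± 0.60 (SE; adjusted p = 0.0239) for Uqcr10. Ndufs3 read 703, 629 and 835 in Sall4 morpholino embryos at 44 h and 262, 524 and 806 at 20 h, against 2105, 1713 and 1827 in uninjected embryos at 44 h and 296, 370.1 and 67.9 at 20 h. Uqcr10 read 368, 169 and 1130.4 in Sall4 morpholino embryos at 44 h and 445, 423 and 1462 at 20 h, against 814, 1092 and 937 in uninjected embryos at 44 h and 169, 246 and 289 at 20 h. With arrays of the own scale only, none of the 3 passed (adjusted p = 0.077, 0.0514 and 0.0928), nor did Uqcr11 for Oct4 (0.0538). The Ndufb10 call was lost without replicate 2 of the Sall4 morpholino embryos at 44 h (adjusted p = 0.0817) or replicate 2 of the Sall4 morpholino embryos at 20 h (0.0607), the Ndufs3 call without replicate 2 of the Sall4 morpholino embryos at 44 h (adjusted p = 0.0661), replicate 3 of the Sall4 morpholino embryos at 20 h (0.0649) or replicate 3 of the uninjected embryos of the Sall4 experiment at 20 h (0.0598), and the Uqcr10 call without replicate 2 of the Sall4 morpholino embryos at 44 h (adjusted p = 0.102), replicate 3 of the Sall4 morpholino embryos at 20 h (0.0765) or replicate 2 of the uninjected embryos at 44 h (0.0546). Oct4 and Sall4 share the uninjected arrays at 44 h.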

How the results depend on the processing

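Counts of called subunits among the 81 were computed under each alternative. With pseudocount 1 in place of 16, the count for the Nanog morpholino against the control morpholino was 0 at 20 h and 0 at 44 h, in place of 1 each, and with pseudocount 64 it was 2 at 20 h. With the mean of all probe sets of a gene it was 0 at 44 h, and the Sall4 count at 20 h was 1 in place of 0. With arrays of the own scale only, the Sall4 count at 44 h was 3 in place of 6 and its count of differing changes over time 0 in place of 3. With the uninjected embryos in place of the control morpholino, the Nanog count at 44 h was 2. With the replicate number as a block, the count was 1 for Sall4 at 20 h and 0 for Nanog at 20 h. Correlations between same-numbered arrays, taken on deviations from the group means, were -0.045 to 0.137, and 6 of 69, all in the Nanog experiment, exceeded 0.1. Differently numbered arrays were not correlated for reference, so these values cannot tell whether the numbers pair the samples. Nrf1 in Oct4 against Sall4 morpholino embryos was the 1 reversed result (0.18 with the mean of all probe sets, against -1.45). The cause of these differences was not tested.

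With each array left out in turn, the counts over time were 29 to 35 in uninjected, 15 to 22 in control morpholino and 12 to 22 in Nanog morpholino embryos of the Nanog experiment, 59 to 64 in uninjected embryos of the others, 43 to 50 with the Oct4 and 46 to 54 with the Sall4 morpholino. At 44 h they were 5 to 11 for Oct4, 1 to 9 for Sall4, 0 to 4 for Nanog and 4 to 7 for Oct4 against Sall4, and at 20 h 0 to 3, 0 to 5 and 0 to 2 for Oct4, Sall4 and Nanog. The counts of differing changes were 2 to 5 for Oct4, 0 to 6 for Sall4 and 0 for Nanog, and the control morpholino against uninjected embryos gave 0. Of 207 named results, 124 passed under every alternative. With 3 arrays a group, an exact permutation test cannot go below 0.1, and the number of arrays limits the precision.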
